A study of Homo sapiens with 6 samples.

Results

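The genes described here are 38 parts of the autophagy machinery, measured after silencing of HBO1 in UWB1.289, a cell line from a human ovarian carcinoma that lacks functional BRCA1. Members were chosen by name, as the genes of each step from initiation to cargo receptors, and every array probe annotated to them was used, with older symbols traced through gene identifiers. All 38 have at least 1 probe (59 probes in all), and 37 of them had a probe that passed the detection filter, out of 12227 named genes that did. The samples are 3 Illumina bead arrays of cells transfected with siHBO1, small interfering RNA (siRNA) against HBO1 that the labels do not describe as 1 sequence or a pool, and 3 of cells transfected with siCTRL, a scrambled siRNA, all harvested 48 hours after transfection. HBO1, encoded by KAT7, is a histone acetyltransferase, and the series asks what its loss does to transcripts in this line. It is 1 cell line, the labels do not name separate cultures for the replicates, and the p-values below therefore reflect array-to-array spread that could be purely technical. In such bulk RNA, fewer cells of a type and less RNA per cell cannot be told apart.

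Autophagy encloses cytoplasm in a double membrane, the autophagosome, and delivers it to the lysosome. The ULK kinase complex starts the process, a class III phosphatidylinositol 3-kinase (PI3K) complex marks the growing membrane with the lipid PI3P, and PI3P readers and lipid carriers expand it. A ubiquitin-like conjugation system then couples the ATG8 proteins (LC3 and GABARAP) to the membrane, where they bind receptors that carry cargo. Transcript levels do not measure autophagic flux, which is set largely by protein modification and turnover.

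The promoters of 4 genes are shown because they belong to ULK1, the single member that passed the test, and to ATG3, ATG10 and BNIP3, the members whose siHBO1 arrays all lay below the siCTRL arrays. Each window holds 250 bases before and 50 from the gene start on, is given 5′ to 3′ on the gene's strand, and comes from RefSeq on GRCh38.p14. Capitals mark CACGTG, the E-box that factors of the TFEB family and others bind, GTAAACA, a forkhead (FOXO) motif, and ACGTG, the core of the hypoxia-inducible factor motif, on either strand. CACGTG contains ACGTG, so each E-box also counts as a core.
ULK1, chr12:131894372-131894671, plus strand: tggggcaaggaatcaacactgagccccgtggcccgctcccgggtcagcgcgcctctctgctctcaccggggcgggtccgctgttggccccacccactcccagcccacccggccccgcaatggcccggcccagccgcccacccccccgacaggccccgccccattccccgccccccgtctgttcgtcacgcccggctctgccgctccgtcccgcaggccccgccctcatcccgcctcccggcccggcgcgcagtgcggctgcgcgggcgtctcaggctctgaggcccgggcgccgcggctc
ATG3, chr3:112561913-112562212, minus strand: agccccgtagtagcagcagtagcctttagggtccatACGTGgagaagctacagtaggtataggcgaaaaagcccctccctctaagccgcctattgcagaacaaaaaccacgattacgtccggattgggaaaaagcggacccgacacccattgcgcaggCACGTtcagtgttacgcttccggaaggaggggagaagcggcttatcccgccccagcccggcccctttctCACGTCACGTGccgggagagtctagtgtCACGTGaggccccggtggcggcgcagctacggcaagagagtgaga
ATG10, chr5:81971773-81972072, plus strand: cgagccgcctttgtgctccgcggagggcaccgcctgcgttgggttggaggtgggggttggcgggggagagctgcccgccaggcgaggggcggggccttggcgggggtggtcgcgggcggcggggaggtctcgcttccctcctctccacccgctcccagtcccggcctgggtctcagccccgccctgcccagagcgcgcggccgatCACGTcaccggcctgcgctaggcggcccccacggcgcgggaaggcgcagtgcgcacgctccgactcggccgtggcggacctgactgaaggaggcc
BNIP3, chr10:131981874-131982173, minus strand: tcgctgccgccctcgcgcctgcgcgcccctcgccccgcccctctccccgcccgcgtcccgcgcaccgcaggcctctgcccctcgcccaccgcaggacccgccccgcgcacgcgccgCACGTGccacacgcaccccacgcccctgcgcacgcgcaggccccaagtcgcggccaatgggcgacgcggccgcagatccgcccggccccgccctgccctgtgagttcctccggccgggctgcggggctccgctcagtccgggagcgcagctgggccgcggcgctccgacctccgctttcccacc
The ULK1 window holds 0 matches to any of the 3 motifs. The ATG3 window has 2 E-boxes, whose first bases lie at -18 and 5 counted with the first base after the 250 upstream ones as 0, and the BNIP3 window has 1, at -134. ATG10 has 1 ACGTG core, on the strand opposite the gene, and 0 E-boxes. Promoter windows were found for 33 of the 38 members (41 windows, since some genes have several). Of these 41, 4.88% held an E-box, against 7.26% of all 35116 windows, 2.44% held the forkhead motif, against 3.42% of all, and 29.3% held the ACGTG core, against 21.4% of all. The motifs were picked after the expression values were seen, and a match is a run of letters, not a bound site.

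The labels were checked on the siRNA target. KAT7 read 5.59, 6.28 and 5.98 in siHBO1 cells, against 7.98, 7.93 and 7.56 in siCTRL cells, as normalised log2 intensity. It fell by 1.87 (SE 0.20, adjusted p = 0.0186), which left 27.3% of the siCTRL signal, with a two-sided exact permutation p of 0.1, the smallest that 3 against 3 arrays can give. Its adjusted p exceeded 0.05 without siHBO1 replicate 1 (0.0594), siHBO1 replicate 2 (0.0604), siCTRL replicate 2 (0.0966) or siCTRL replicate 3 (0.0853), and without background correction the fall was smaller (-0.74). Between 20546 and 21507 probes were detected per array. Of 10 markers of ovarian carcinoma epithelium all 10 were detected, of 6 fibroblast markers 3, of 6 leukocyte markers 3 and of 4 endothelial markers 2, while COL3A1, LUM, PDGFRB, PTPRC, CD3E, LYZ, KDR and VWF missed the detection filter, and 0 of the fibroblast, leukocyte and endothelial markers passed the test used below. Of these, CD14 (0.79, adjusted p = 0.0988), PECAM1 (0.68, adjusted p = 0.102), COL1A2 (0.33, adjusted p = 0.201) and the untested VWF read higher on every siHBO1 array than on any siCTRL array. Among the epithelial markers MUC16 (1.33) and CDH1 (0.76) were higher in siHBO1 cells by that test, and WT1 (-0.53, adjusted p = 0.113) was detected on 1 of 3 siHBO1 arrays. The part of these markers in the results was not tested.

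ULK1 rose after HBO1 silencing, and the changes of the other 36 measured members did not pass the test. Each gene is taken by its brightest probe, a change is the siHBO1 minus siCTRL difference of normalised log2 intensity, and a gene was called at a limma p below 0.05 after Benjamini-Hochberg adjustment over all 21333 tested probes. By this rule 1 of the 37 measured members rose, where 1.91% of all genes were called higher, and 0 fell, where 1.28% of all genes were called lower (3.19% in either direction). Of all genes, 234 were called higher and 156 lower, a split that median scaling turned to 169 and 225. Among single probes, 2 of 49 tested member probes were called, both of ULK1 and both higher, where 1.47% of all probes were called higher and 1.26% lower (2.73% in all). At an unadjusted p of 0.05, 7 members were higher, against 12.9% of all genes, and 3 were lower, against 10.9% of all genes (23.8% in either direction). These are 18.9% and 8.11% of the measured members. The number higher at an unadjusted limma p under 0.05 was 4 with median scaling and 10 with the replicate number as a block. The 3 siHBO1 arrays all lay above the 3 siCTRL arrays for 11 members (29.7%, where 16.7% of all genes did so) and all below for 3 (8.11%, where 14.2% of all genes did so; 30.9% in either direction). The members' median change was 0.02, and that of all genes was 0.01.

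**Figure D1:**
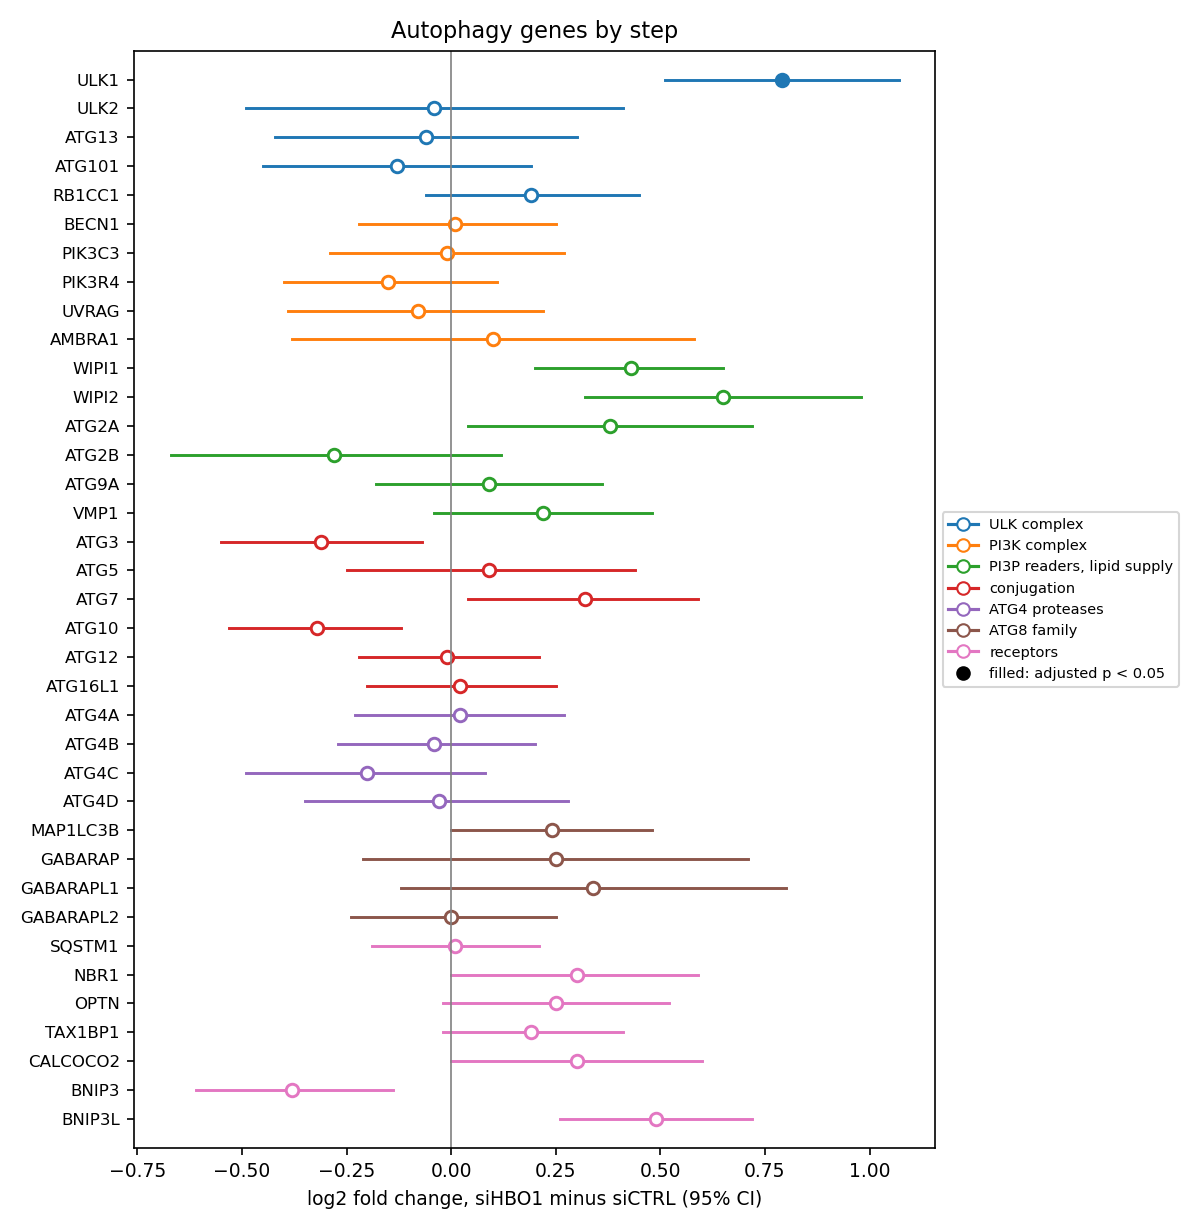
Change of the 37 measured autophagy genes, grouped by step from top to bottom: points are log2 fold changes (siHBO1 minus siCTRL, 3 arrays each) of the brightest probe and lines are limma 95% confidence intervals. ULK1, at 0.79, is the single filled point, and the intervals of WIPI1, WIPI2, ATG2A, ATG7, BNIP3L and, barely, MAP1LC3B also lie above 0 while those of ATG3, ATG10 and BNIP3 lie below it.

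In the initiation complex, ULK1, the kinase that starts autophagosome formation, was higher in siHBO1 cells on both of its detected probes. Its brightest probe read 12.57, 12.51 and 12.38 in siHBO1 cells, against 11.89, 11.68 and 11.53 in siCTRL cells. The groups did not overlap, and the lowest siHBO1 array was above the highest siCTRL array. The change was 0.79 (SE 0.12, 95% confidence interval 0.51 to 1.07), a 1.73-fold rise with adjusted p = 0.0287. A second probe read 12.31, 12.38 and 12.13 in siHBO1 cells, against 11.64, 11.39 and 11.36 in siCTRL cells, a rise of 0.81 (SE 0.12, adjusted p = 0.0277). Whether these probes overlap in sequence was not examined, and another ULK1 probe was detected on 0 arrays. Before any correction the deposited signals of the brightest probe were 6050, 5618 and 5461 in siHBO1 cells, against 4277, 3781 and 3026 in siCTRL cells, a ratio of means of 1.55. ULK1 was called under all 9 alternative ways of processing or testing, with changes from 0.69 under median scaling to 0.80 with the mean of its probes. It was not called when any 1 array was left out: the change and adjusted p were 0.75 and 0.0890 without siHBO1 replicate 1, 0.78 and 0.0959 without siHBO1 replicate 2, 0.84 and 0.0508 without siHBO1 replicate 3, 0.88 and 0.0511 without siCTRL replicate 1, 0.78 and 0.122 without siCTRL replicate 2, and 0.70 and 0.104 without siCTRL replicate 3. Leaving out an array lowered the number of genes called over the whole table from 390 to between 0 and 180.

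None of the other 4 genes of the complex was called. ULK2, the related kinase, read 6.37, 5.99 and 6.62 in siHBO1 cells, against 6.20, 6.26 and 6.64 in siCTRL cells. The 2 groups of ULK2 values overlapped, and its change was -0.04 (95% confidence interval -0.49 to 0.41). ATG13, which links the kinase to its scaffold, was at -0.06 and was detected on 2 of 3 siHBO1 arrays. ATG101, the ATG13-binding subunit, was at -0.13, and RB1CC1 (FIP200), the scaffold of the complex, at 0.19, none of them called. ULK2 lay near background, with deposited signals from 226 to 296, where folds depend on the background correction. Within each array, the ULK1 minus ULK2 difference was higher in siHBO1 cells by 0.83 (SE 0.32, exact two-sided permutation p = 0.1, adjusted over 5 paralog pairs 0.250). These within-array differences did not overlap between the groups, but 3 against 3 arrays cannot give a p below 0.1.

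In the lipid kinase complex that nucleates the membrane, no gene was called and the intervals of the changes spanned 0. BECN1 (Beclin 1), its regulatory subunit, was at 0.01 (95% confidence interval -0.22 to 0.25), PIK3C3, the catalytic subunit VPS34, at -0.01 (-0.29 to 0.27), and PIK3R4, the VPS15 subunit, at -0.15 (-0.40 to 0.11). PIK3R4, the largest change of this step, read 9.17, 8.84 and 9.04 in siHBO1 cells, against 9.17, 9.14 and 9.19 in siCTRL cells. That rank depended on the arrays used. Without siHBO1 replicate 2 PIK3R4 was at -0.06 and AMBRA1 at 0.21. Without siCTRL replicate 1 PIK3R4 was at -0.15 and UVRAG at -0.20, and without siCTRL replicate 3 PIK3R4 was at -0.13 and AMBRA1 at 0.23. Of the regulators that join the complex, UVRAG was at -0.08 and AMBRA1 at 0.10. The groups overlapped for all 5 of these genes, where 30.9% of all genes had groups that did not overlap. An unadjusted limma p under 0.05 was found for 0 of the 5, against 23.8% of all genes, and 5 genes are too few to set apart from those shares.

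Among PI3P readers and lipid suppliers, values were mostly higher in siHBO1 cells, and none was called. WIPI2, the PI3P reader that recruits ATG16L1, read 8.64, 8.53 and 8.33 in siHBO1 cells, against 8.10, 7.76 and 7.71 in siCTRL cells. Its change of 0.65 (SE 0.14, 95% confidence interval 0.32 to 0.98) had an adjusted p = 0.0599. WIPI1, a related PI3P reader, read 9.80, 9.93 and 9.95 in siHBO1 cells, against 9.54, 9.37 and 9.49 in siCTRL cells, a change of 0.43 (SE 0.09, adjusted p = 0.0633). Every siHBO1 array was above every siCTRL array for both WIPI genes. Each passed under 6 of the 9 processing alternatives, with adjusted p down to 0.0145 for WIPI1 and 0.0154 for WIPI2, and under 0 of the 6 that left out an array. Without background correction the WIPI2 change was 0.39.

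The lipid transfer proteins ATG2A and ATG2B had changes of opposite sign, neither called. ATG2A was at 0.38 (95% confidence interval 0.04 to 0.72, adjusted p = 0.191), with siHBO1 values of 10.14, 9.76 and 9.75, against siCTRL values of 9.64, 9.31 and 9.56. Its paralog ATG2B was at -0.28 (-0.67 to 0.12), and the within-array difference between them, 0.66, had an exact permutation p = 0.2. ATG2B lay near background, and without background correction its change was -0.10. VMP1, an endoplasmic reticulum scramblase, was at 0.22 with groups that did not overlap, and ATG9A, the scramblase of the seed vesicles, was at 0.09. In all, 4 of the 6 genes of this step had every siHBO1 array above every siCTRL array, where 16.7% of all genes did so, and the step's median change was 0.30.

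The conjugation enzymes had changes of both signs, none called. ATG10, the E2-like enzyme that couples ATG12 to ATG5, was lower on both of its probes. The brightest read 9.15, 9.15 and 9.13 in siHBO1 cells, against 9.56, 9.45 and 9.39 in siCTRL cells, and the second read 7.76, 7.59 and 7.32 in siHBO1 cells, against 8.23, 8.17 and 8.16 in siCTRL cells. Their changes were -0.32 (SE 0.09, adjusted p = 0.0989) and -0.63 (SE 0.13, adjusted p = 0.0523), so neither was called. Every siHBO1 array was below every siCTRL array on both probes, and the mean of the probes, at -0.48, passed (adjusted p = 0.0349).

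ATG3, the E2-like enzyme that attaches ATG8 proteins to lipid, read 12.07, 11.87 and 12.13 in siHBO1 cells, against 12.30, 12.30 and 12.40 in siCTRL cells. Its change was -0.31 (SE 0.10, adjusted p = 0.150), and a dimmer probe, whose groups overlapped, was at -0.24. ATG7, the E1-like enzyme that feeds both E2 enzymes, lay on the other side at 0.32 (SE 0.12, adjusted p = 0.181), with siHBO1 values of 9.89, 10.00 and 9.71, against siCTRL values of 9.65, 9.60 and 9.40. The remaining parts of this system had smaller changes: ATG5 was at 0.09, ATG12 at -0.01, and ATG16L1, which sets the site of lipidation, at 0.02.

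The ATG4 proteases, which prime ATG8 proteins and release them from lipid, gave no call. ATG4A was at 0.02, ATG4B at -0.04 and ATG4D at -0.03, with 95% confidence intervals that stayed within -0.35 and 0.28. ATG4C had the largest change of the 4, at -0.20, and read 10.09, 10.00 and 10.32 in siHBO1 cells, against 10.19, 10.40 and 10.42 in siCTRL cells. The groups overlapped for all 4 proteases, where 30.9% of all genes had groups that did not overlap. Of the 4, 0 had an unadjusted limma p under 0.05, against 23.8% of all genes, and 4 genes are too few to set apart from those shares.

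**Figure D2:**
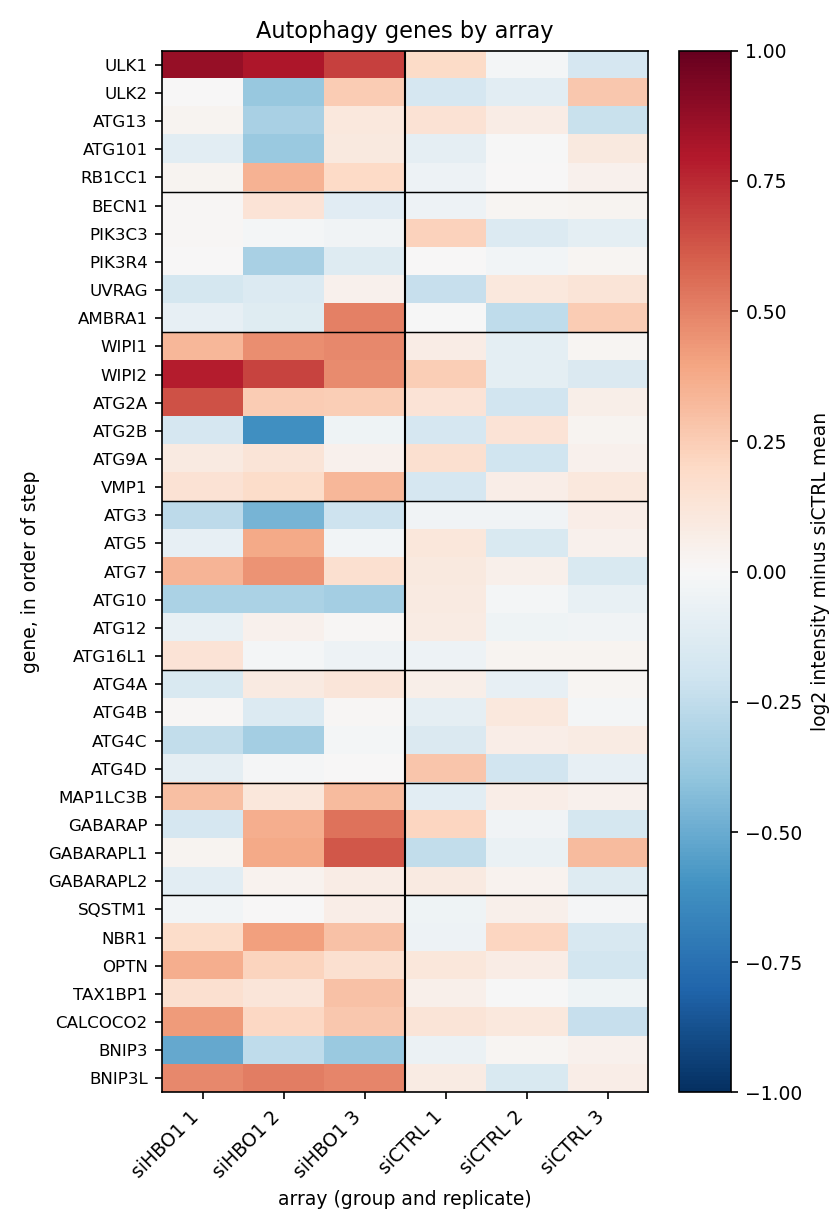
Each of the 37 measured autophagy genes on each array, as log2 intensity minus the mean of the 3 siCTRL arrays, with the siHBO1 arrays left of the black line and the siCTRL arrays right of it, and thin lines between steps. ULK1 and the WIPI genes are raised on all 3 siHBO1 arrays, ATG10 and BNIP3 are lowered on all 3, and most rows of the PI3K complex and of the ATG4 proteases have no common colour.

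In the ATG8 family none of the 4 measured genes was called. GABARAPL1 had the largest change, at 0.34 (95% confidence interval -0.12 to 0.80), and read 10.04, 10.39 and 10.63 in siHBO1 cells, against 9.76, 9.94 and 10.33 in siCTRL cells. These groups overlapped, because siCTRL replicate 3 was above siHBO1 replicate 1. The change was 0.20 without siHBO1 replicate 3, 0.22 without siCTRL replicate 1 and 0.50 without siHBO1 replicate 1 or siCTRL replicate 3. It was no longer the largest of the family without siHBO1 replicate 3 (MAP1LC3B, 0.21) or without siCTRL replicate 1 (GABARAP, 0.36). MAP1LC3B (LC3B), the protein followed in most autophagy assays, was at 0.24 (adjusted p = 0.225), with siHBO1 values of 11.55, 11.36 and 11.56 that all lay above the siCTRL values of 11.14, 11.31 and 11.29. GABARAP was at 0.25, with 0.10 without siHBO1 replicate 3 and 0.46 without siHBO1 replicate 1, and GABARAPL2 at 0.00 (95% confidence interval -0.24 to 0.25). All 3 probes of MAP1LC3A (LC3A) were undetected on all 6 arrays, so that gene has no value here.

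The cargo receptors for ubiquitin-tagged material gave no call. SQSTM1 (p62), the best known of them, read 14.21, 14.24 and 14.31 in siHBO1 cells, against 14.20, 14.29 and 14.23 in siCTRL cells. The difference, 0.01, had limits of -0.19 and 0.21 at 95% confidence. NBR1, a p62-related receptor detected on 1 of 3 siCTRL arrays, was at 0.30, CALCOCO2 (NDP52) at 0.30, OPTN (optineurin) at 0.25 and TAX1BP1 at 0.19. For CALCOCO2, OPTN and TAX1BP1 every siHBO1 array lay above every siCTRL array, where 16.7% of all genes did so. The unadjusted limma p was 0.0523 for CALCOCO2, 0.0661 for OPTN and 0.0740 for TAX1BP1, and a second TAX1BP1 probe, at 0.10, overlapped. Without background correction NBR1 was at 0.08 and CALCOCO2 at 0.13, and without siCTRL replicate 3 CALCOCO2 was at 0.18 and OPTN at 0.16.

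The paired mitophagy receptors BNIP3 and BNIP3L (NIX), related proteins of the outer mitochondrial membrane, had changes of opposite sign. BNIP3 read 11.52, 11.78 and 11.66 in siHBO1 cells, against 11.97, 12.05 and 12.07 in siCTRL cells, a change of -0.38 (SE 0.10, adjusted p = 0.0926). BNIP3L read 10.01, 10.04 and 10.02 in siHBO1 cells, against 9.61, 9.38 and 9.60 in siCTRL cells, a change of 0.49 (SE 0.10, adjusted p = 0.0509). The groups overlapped for neither gene, nor for a second BNIP3L probe at 0.73 (SE 0.19, adjusted p = 0.0906). BNIP3L was called under 6 of the 9 processing alternatives and BNIP3 under 2, and neither was called under any of the 6 that left out an array.

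Set within each array, BNIP3 minus BNIP3L differed between the groups by -0.87 (SE 0.11). Relative to the siCTRL mean this difference was -0.98, -0.76 and -0.87 in siHBO1 cells, against -0.14, 0.17 and -0.03 in siCTRL cells. The groups did not overlap, and the exact permutation p was 0.1 (adjusted over the 5 pairs, 0.250). The difference was -0.90 under median scaling and -0.77 without background correction. The other pairs, WIPI1 against WIPI2 (-0.22) and GABARAPL1 against GABARAPL2 (0.34), overlapped, each with an exact permutation p = 0.3.

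**Figure D3:**
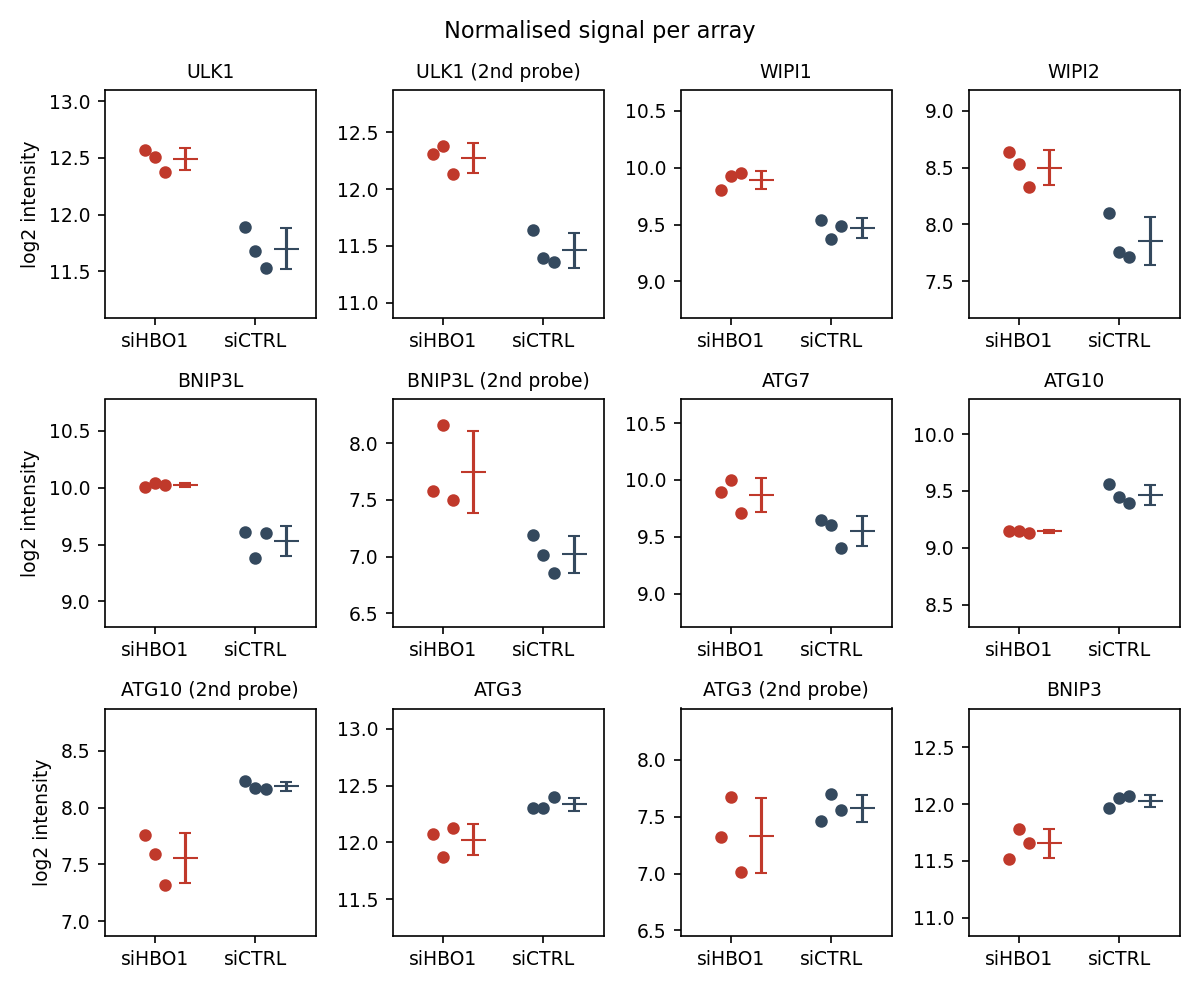
Normalised log2 intensity of 8 autophagy genes on each of the 3 siHBO1 and 3 siCTRL arrays, with a second detected probe where there is one; points are arrays, and the bar beside them is the mean with the SD. Each panel spans the same range on the log2 scale, so the ULK1 shift of 0.79 can be set by eye against -0.32 for ATG10 and 0.49 for BNIP3L.

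Of the 12 members with at least 2 tested probes, 7 had probes that agreed in sign (ULK1, BNIP3L, ATG3, ATG10, ATG9A, ATG4A and TAX1BP1). The other 5 had probes on both sides of 0 and no probe further from 0 than 0.14.

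**Figure D4:**
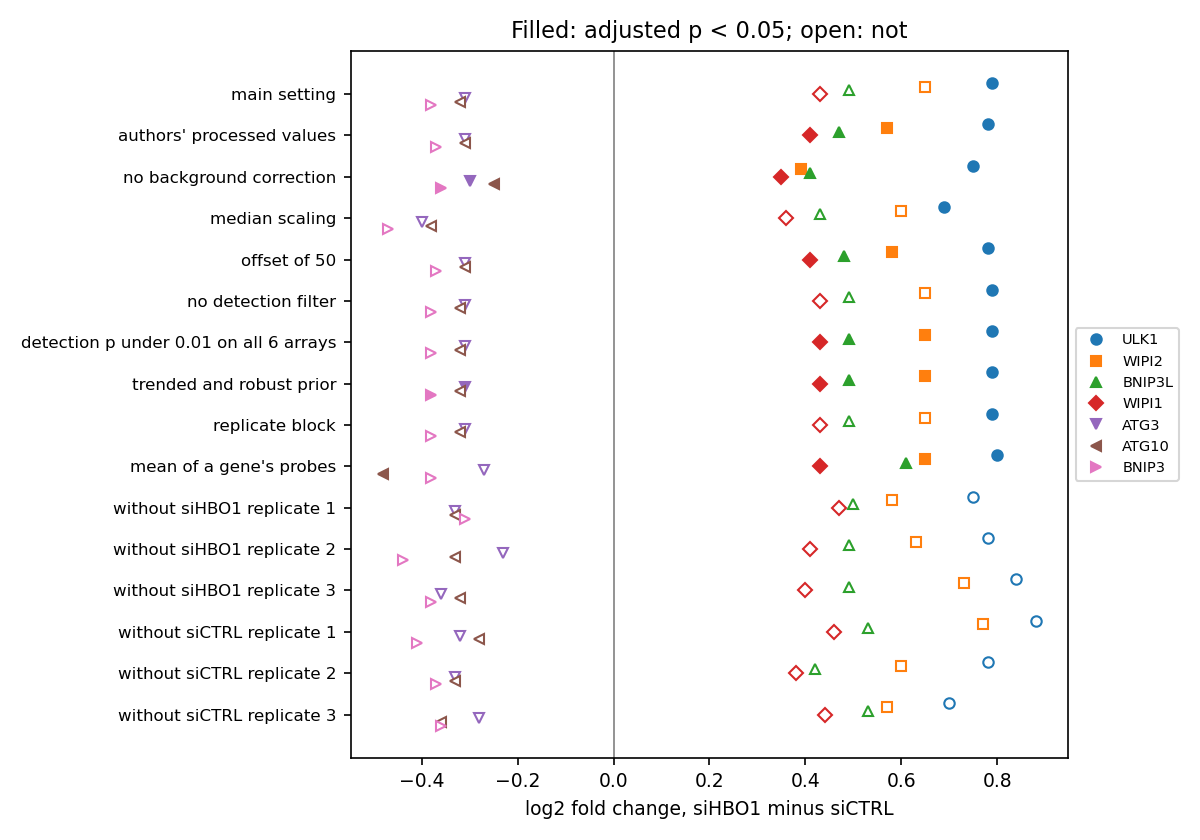
Change of the 7 members that were called under at least 1 setting, down the main setting, the 9 processing alternatives and the 6 fits that left out an array (x axis, log2 fold change, siHBO1 minus siCTRL; filled symbols have an adjusted p below 0.05). All 7 keep their side of 0, ULK1 is filled in the first 10 rows, and no symbol is filled in the last 6.

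Around the core machinery, 71 further genes of the pathway were looked up in 5 lists, and 62 had a tested probe. Of these, 4 rose and 1 fell, where 1.91% and 1.28% of all genes did so, and 57 were not called. Their median change was 0.02.

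TP53INP1, a stress-induced protein that binds ATG8 proteins, had the largest rise. It read 9.27, 9.27 and 8.79 in siHBO1 cells, against 8.09, 7.92 and 7.87 in siCTRL cells, a rise of 1.15 (SE 0.15, 2.22-fold, adjusted p = 0.0238), and a second probe rose by 1.77 (SE 0.18, adjusted p = 0.0186). The call held under all 9 processing alternatives and without siHBO1 replicate 3, and was lost without siHBO1 replicate 1 (adjusted p = 0.0713), siHBO1 replicate 2 (0.0847), siCTRL replicate 1 (0.0527), siCTRL replicate 2 (0.113) or siCTRL replicate 3 (0.0935). Without background correction the rise was 0.77. It was the single call among 12 tested core genes and regulators, where 1.91% of all genes were called higher. TP53INP2 was at 0.62 (adjusted p = 0.0981). DEPP1 was detected on 3 of 3 siHBO1 arrays and 0 of 3 siCTRL arrays, so it passed the detection filter through the siHBO1 arrays alone. Its ratio of siHBO1 to siCTRL therefore has only a lower bound, and it was not called (adjusted p = 0.0994).

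Among 17 tested kinases and regulators of AMPK and mTORC1, the energy and nutrient sensors that act on ULK1, 1 fell and 1 rose, 5.88% in each direction, where 1.28% of all genes were called lower and 1.91% higher. PRKAA1, the AMPK catalytic subunit α1, read 10.56, 10.37 and 10.58 in siHBO1 cells, against 11.12, 11.25 and 11.39 in siCTRL cells. It fell by 0.75 (SE 0.11, adjusted p = 0.0277), and a second probe fell by 0.78 (SE 0.11, adjusted p = 0.0254). DDIT4 (REDD1), a stress-induced inhibitor of mTORC1, read 13.52, 13.29 and 13.19 in siHBO1 cells, against 12.77, 12.58 and 12.58 in siCTRL cells, a rise of 0.69 (SE 0.12, adjusted p = 0.0375). The groups overlapped for neither gene. The PRKAA1 call held under 8 of the 9 processing alternatives (0.0516 with the replicate number as a block) and the DDIT4 call under 7 (0.0622 with median scaling and 0.0635 without the detection filter). Leaving out any 1 array ended both calls, with adjusted p between 0.0511 and 0.118 for PRKAA1 and between 0.0517 and 0.143 for DDIT4. MTOR was at -0.01 and PRKAA2, the other AMPK catalytic subunit, at -0.12.

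Of 9 tested transcription factors that act on autophagy genes, FOXO3, a forkhead factor, and HIF1A, the oxygen-regulated subunit of the hypoxia-inducible factor, rose and 0 fell, against the same shares of all genes. FOXO3 read 12.70, 12.73 and 12.57 in siHBO1 cells, against 12.22, 12.11 and 12.23 in siCTRL cells, a rise of 0.48 (SE 0.09, adjusted p = 0.0468), while a second FOXO3 probe, at 0.21, was not called. HIF1A read 10.16, 10.08 and 10.07 in siHBO1 cells, against 9.61, 9.57 and 9.59 in siCTRL cells, a rise of 0.51 (SE 0.08, adjusted p = 0.0334), and 2 further probes at 0.57 and 0.12 were not called. FOXO3 passed under 5 and HIF1A under 6 of the 9 processing alternatives, and leaving out any 1 array ended both calls, with adjusted p from 0.0596 to 0.163 for FOXO3 and from 0.0562 to 0.139 for HIF1A. Neither passed with median scaling (0.0804 for FOXO3 and 0.0589 for HIF1A). FOXO4 had the largest change of this list, at 0.54, and was not called (adjusted p = 0.132). TFEB, the factor best known for autophagy and lysosome genes, was detected on 1 of 6 arrays and not tested. Its relatives TFE3 and MITF were at -0.17 and -0.24. Of the 9 tested factors, 4 had changes above 0 and 5 below.

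In the other 2 lists, limma called 0 genes. Among 11 tested selective receptors and mitophagy factors, 1 was higher and 0 were lower before adjustment (p under 0.05), or 9.09% and 0, where 12.9% and 10.9% of all genes were. The largest change was that of PINK1, the mitophagy kinase, at 0.24, level in size with SEC62 at -0.24. Among 13 tested genes of fusion with the lysosome, 1 was higher and 1 was lower unadjusted, 7.69% in each direction against the same 12.9% and 10.9%, and EPG5, a tether of autophagosome and lysosome, had the largest change at -0.47 (SE 0.15, adjusted p = 0.139).

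**Figure D5:**
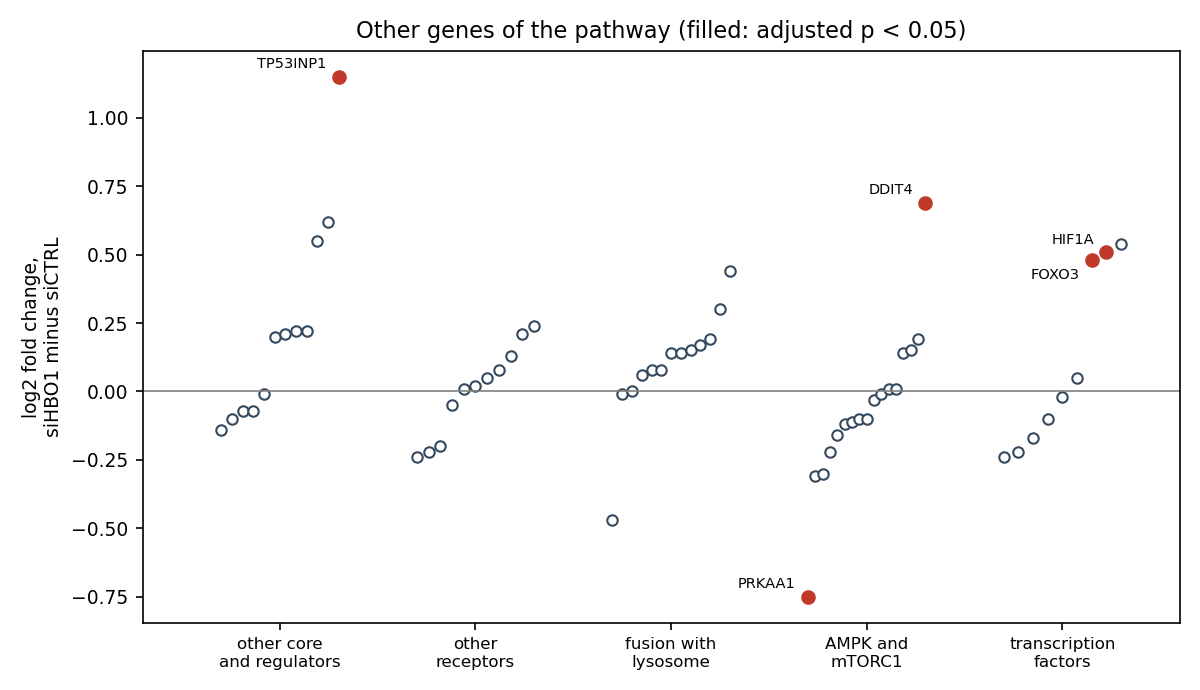
Change of 62 further genes of the pathway by list (y axis, log2 fold change, siHBO1 minus siCTRL, brightest probe), ordered by value within each list, with filled and named points for the 5 that passed an adjusted p of 0.05. TP53INP1 is highest at 1.15 and PRKAA1 lowest at -0.75, and the lists of other receptors and of fusion with the lysosome have no filled point; DEPP1, drawn at its fitted change, has only a bound.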

How the data were processed

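Biotinylated cRNA from total RNA was hybridised to Illumina bead arrays, per the labels' protocols; the submitters' processing notes list GenomeStudio and lumi without versions. Per the file headers, the deposited intensity table holds each probe's average bead signal, neither normalised nor background-subtracted judging by its values, with a detection p-value per probe and array. The authors' second deposited table holds log2 intensity with the same median, 6.31, in every column; it was used as an alternative.

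Background correction and quantile normalisation used neqc (limma 3.58.1, R 4.3.3; offset 16; control intensities inferred from detection p-values). Probes with a detection p under 0.05 on at least 3 of 6 arrays were tested (21333 of 47316). Symbols came from the platform annotation, updated by Entrez identifier with RefSeq (GRCh38.p14). Groups were compared with lmFit and eBayes on 2 group means, with Benjamini-Hochberg adjustment over all tested probes. The test was tried on simulated data. On arrays the number of arrays limits precision.

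The members, steps and lists were chosen with earlier results of these data known. Values per array are given for called members and the largest change of each step; values of other members, and the motifs, were added after their values were seen. From the other lists, called genes or the largest change are named. TP53INP2, DEPP1, MTOR, PRKAA2, SEC62, FOXO4, TFEB, TFE3 and MITF were added after their values were seen. The sources used here do not give the siRNA sequence, and effects on other transcripts were not examined.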

Additional observations from a re-analysis of the deposited data

How the results depend on the processing

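ULK1 was the 1 member called higher with the main setting, with median scaling, without the detection filter and with the replicate block. The number called higher was 4 (ULK1, WIPI1, WIPI2 and BNIP3L) with the authors' processed values, without background correction, with an offset of 50, with detection p under 0.01 on all 6 arrays, with a trended and robust prior and with probes averaged per gene. The number called lower was 3 without background correction (ATG3, ATG10 and BNIP3), 2 with the trended and robust prior (ATG3 and BNIP3), 1 with the mean of probes (ATG10) and 0 otherwise. Genes called over the whole table numbered 390 with the main setting, 1307 without background correction, 1346 with the trended and robust prior, 682 with the authors' processed values, 713 with an offset of 50, 810 with the stricter detection rule, 726 with probes averaged and 171 without the detection filter; leaving out each array gave 0 to 180. With median scaling 4 members were higher and 3 lower at an unadjusted limma p under 0.05, and the members' median change was -0.04. Leaving out each array gave 0 members higher and 0 lower by limma's adjusted p, with 5 to 8 higher and 2 to 4 lower at an unadjusted p of 0.05. The cause of these shifts was not tested, beyond the fewer samples of the last.

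In the other lists, 1 gene was called higher with median scaling, 1 without the detection filter and 2 with the replicate block, against 4, and with the replicate block 0 were called lower. Leaving out each array gave 0 to 1 higher and 0 lower there. KAT7 ranged from -2.04 to -1.69 when an array was left out. The paralog differences kept their sign under all alternatives run.

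Signs turned for 14 members, all within 0.10 of 0 in the main setting: with median scaling BECN1 (-0.08), ATG16L1 (-0.05), ATG4A (-0.05), GABARAPL2 (-0.08) and SQSTM1 (-0.04), whereas all genes shifted to a median of -0.05; with the mean of probes ATG12 (0.06), ATG4D (0.00) and GABARAPL2 (-0.07). Leaving out an array gave -0.18 to 0.13 for ULK2, -0.17 to 0.07 for ATG13, -0.05 to 0.08 for BECN1, -0.08 to 0.11 for PIK3C3, -0.10 to 0.23 for AMBRA1, -0.01 to 0.17 for ATG9A, -0.05 to 0.18 for ATG5, -0.03 to 0.03 for ATG12, -0.03 to 0.06 for ATG16L1, -0.03 to 0.10 for ATG4A, -0.08 to 0.02 for ATG4B, -0.13 to 0.10 for ATG4D, -0.06 to 0.06 for GABARAPL2 and -0.02 to 0.03 for SQSTM1. The other 23 tested members kept their sign.

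Whether the replicate numbers pair the arrays was not settled. Deviations of same-numbered arrays correlated at 0.262, -0.0187 and 0.217. Those of siHBO1 replicate 3 with siCTRL replicate 1 were at -0.278, and of siHBO1 replicate 1 with siCTRL replicate 3 at -0.214. For siHBO1 replicate 2 the best correlation was with siCTRL replicate 1 (0.0249). With the replicate block 202 genes were called, against 390, but 10 members were higher at an unadjusted limma p under 0.05, against 7. The share of all genes at that unadjusted p was not computed for the block. The block also uses degrees of freedom, so fewer calls do not show that pairing is absent. Folds of probes near background (among them ATG13, NBR1, ULK2 and ATG2B) depend on the offset, and depth has no counterpart on arrays.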
